A study of Mus musculus with 4 samples.

Results

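The kappa light chain variable genes (Igkv) were followed in plasma cells of aged mouse gonadal adipose tissue. Members were the 160 features whose symbol starts with Igkv, of 31054 features in all, and the GENCODE vM21 annotation lists 100 of them as V genes and 60 as V pseudogenes. Plasma cells were cells with at least 10 UMIs (unique molecular identifiers, the count of captured transcripts) of Mzb1, an endoplasmic reticulum chaperone of antibody secretion, and at least 2 of Derl3, a factor of endoplasmic reticulum-associated degradation. This rule gave 1533 of 13878 kept cells. The Igkv gene with the most UMIs in a cell was taken as the gene that cell used.

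All 4 libraries came from the stromal vascular fraction of 18-month-old male p16-CreERT2/R26-LSL-tdTomato mice given tamoxifen, so that cells in which the p16 promoter had driven Cre kept a tdTomato label. The cells were sorted as CD45- Tom+ or CD45- Tom-, and as CD45+ Tom+ or CD45+ Tom-, CD45 being the pan-leukocyte surface protein encoded by Ptprc. Each group was 1 library, the number of mice behind it was not given in the sources used here, and no library without tamoxifen or from young mice was analysed here. Group names below are the labels of the libraries. A Ptprc UMI was found in 80.3%, 49.3%, 78.8% and 52.1% of kept cells in that order, so the CD45 label did not set leukocytes apart. With 1 library per group there was no replicate, no p-value is given, and the intervals (95%, exact) cover counting error only.

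Each developing B cell joins 1 Igkv gene to a J segment and transcribes it together with the constant gene Igkc, and the joined light chain pairs with a heavy chain built from an Ighv gene and a constant gene such as Ighm. A repertoire is called skewed where few V genes are used by most cells. B-1 cells, a lineage rich in the body cavities and in fat-associated lymphoid tissue, make natural IgM with recurrent V gene pairs, among them Ighv11-2 with Igkv14-126 and Ighv12-3 with Igkv4-91, both known to bind phosphatidylcholine, and Ighv7-1 with Igkv7-33, known to bind phosphorylcholine.

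The plasma cells numbered 948 (24.4% of kept cells) in CD45- Tom+, 40 (1.09%) in CD45- Tom-, 482 (25.0%) in CD45+ Tom+ and 63 (1.43%) in CD45+ Tom-. The rule itself used Mzb1 and Derl3. Of the other plasma cell markers, Jchain, which joins IgM and IgA subunits, and Xbp1, the transcription factor of the secretory programme, had UMIs in 100% of these cells in every library. Sdc1 (CD138) had UMIs in 94.8% to 98.4%. Genes of the B cell list were mixed. Cd74 had UMIs in 100% of the plasma cells, the antigen receptor subunits Cd79a and Cd79b in 95% to 99.1% and 95.6% to 100%, and Ms4a1 (CD20) in 65.0% to 69.5%, and in CPM (UMIs of a gene per 1000000 UMIs) these 4 genes were above the other kept cells in every library, Ms4a1 with 51.3 against 34.4 CPM in CD45- Tom+. The mature B cell factor Pax5 was found in 1.59% to 10.0% and was below the other cells in CPM in every library. Whether B cells or their RNA contributed to these values was not tested. The plasma cell markers outside the rule were above the other kept cells in CPM in every library, but those cells were not free of them. In CD45- Tom+, Jchain had 23855 against 3037 CPM, Xbp1 1192 against 290 and Sdc1 121 against 58.2. Prdm1, Irf4 and Tnfrsf17 had 116 against 34.3, 148 against 35.9 and 70.6 against 9.71 CPM there. A UMI of Mki67, a proliferation marker, was found in 42.5% to 61.9%. Top2a, also a proliferation marker, had UMIs in 20% to 33.3%. In CPM, Mki67 was above the other kept cells in every library. Top2a was below them in CD45- Tom+ (23.8 against 35.3) and CD45+ Tom+ (28.9 against 49.5). It was above them in CD45- Tom- (19.9 against 9.45) and CD45+ Tom- (65.6 against 14.1). How many plasma cells were dividing was not tested. Median depth was 45016, 37376, 45431.5 and 43051 UMIs per plasma cell. Just inside the rule (under 20 Mzb1 or under 4 Derl3 UMIs) lay 284 cells with a median of 8300.5 Igkc UMIs, and just outside it (at least 5 Mzb1 and 1 Derl3 UMIs) lay 290 cells with a median of 1773.5. Igkv14-126 was the top gene in 85.2% of the called cells inside and 90.7% of those outside.

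Doublet scoring marked 104 of 1052, 18 of 58, 24 of 506 and 33 of 96 plasma cells, which were left out, so the Tom- libraries lost a larger share. Barcodes were also shared between libraries. The pair CD45- Tom- and CD45+ Tom- had 4394 barcodes in common, and the other 5 pairs had 26 to 1134. Among plasma cells, 312, 21, 123 and 22 had a barcode that recurred in another library. In no case was the plasma cell the shallower of the copies, whose median size was 1.24% of the UMIs of the plasma cell. Of 509 copies with a callable Igkv gene, 490 (96.3%) carried the gene of the plasma cell. Most of these were copies of Igkv14-126 cells. Among the 50 callable copies of cells with another top gene, 43 (86.0%) carried the same gene and 4 had Igkv14-126.

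Igkv RNA was a small part of the antibody RNA. Over the 1533 plasma cells, Igkc took 31.7% of all UMIs and the Igkv genes together 0.279%. The libraries were made from the 3′ end of transcripts, where Igkc lies. Igkv UMIs per cell had medians of 116 in CD45- Tom+, 107 in CD45- Tom-, 126 in CD45+ Tom+ and 110 in CD45+ Tom-. The lowest cell had 1 and the highest 646. A top gene could be called in 1530 cells, the other 3 being ties. In the median cell the top gene held 98.2%, 98.5%, 98.4% and 97.9% of the Igkv UMIs. None of the 9 annotated kappa and heavy J segments had a UMI in a plasma cell, so junctions and clones could not be read.

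Igkv14-126 was the top gene in 1302 of the 1530 called cells. It led in 807 of 945 cells of CD45- Tom+ (85.4%, 83.0 to 87.6), 26 of 40 of CD45- Tom- (65.0%, 48.3 to 79.4), 429 of 482 of CD45+ Tom+ (89.0%, 85.9 to 91.7) and 40 of 63 of CD45+ Tom- (63.5%, 50.4 to 75.3). The intervals of the Tom+ libraries lay above those of the Tom- libraries, and within each Tom label the intervals of the CD45 labels overlapped. Without the barcodes that recurred in another library the shares were 84.9% (81.8 to 87.6) of 634 cells, 63.2% (38.4 to 83.7) of 19, 88.6% (84.8 to 91.7) of 359 and 68.3% (51.9 to 81.9) of 41. The Tom- shares were still the lower ones, but with these few cells the intervals overlapped between CD45- Tom+ and both Tom- libraries. With the marked doublets kept, the share in CD45+ Tom- was 56.8%. As a single measure of skew, 2 plasma cells drawn from 1 library had the same top gene in 73.1% of pairs in CD45- Tom+, 44.5% in CD45- Tom-, 79.5% in CD45+ Tom+ and 40.7% in CD45+ Tom-.

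**Figure D1:**
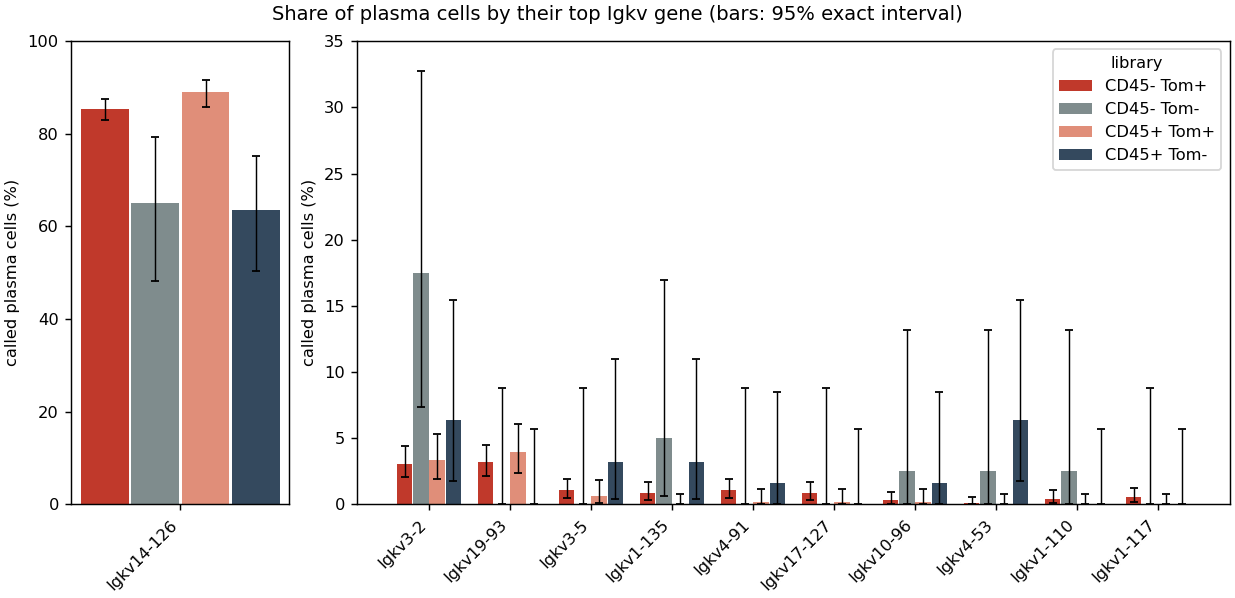
Share of called plasma cells (%) with each Igkv gene on top, for Igkv14-126 (left) and the next 10 most used genes (right, with its own axis). Bars are the 4 libraries and whiskers the exact 95% intervals. Igkv14-126 led in 85.4%, 65.0%, 89.0% and 63.5% of cells, and no other gene passed 17.5% in any library.

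Most calls for Igkv14-126 rested on many UMIs, with at least 10 in 1286 of the 1302 cells. Its UMIs per cell ran from 2 to 645 with a median of 123 among the 807 cells of CD45- Tom+, from 10 to 278 (median 115.5) in CD45- Tom-, from 9 to 506 (median 129) in CD45+ Tom+ and from 46 to 330 (median 124.5) in CD45+ Tom-. The level per cell thus overlapped fully between libraries. Cells with another top gene held a median of 3, 0, 2 and 0 UMIs of Igkv14-126 in the same order.

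**Figure D2:**
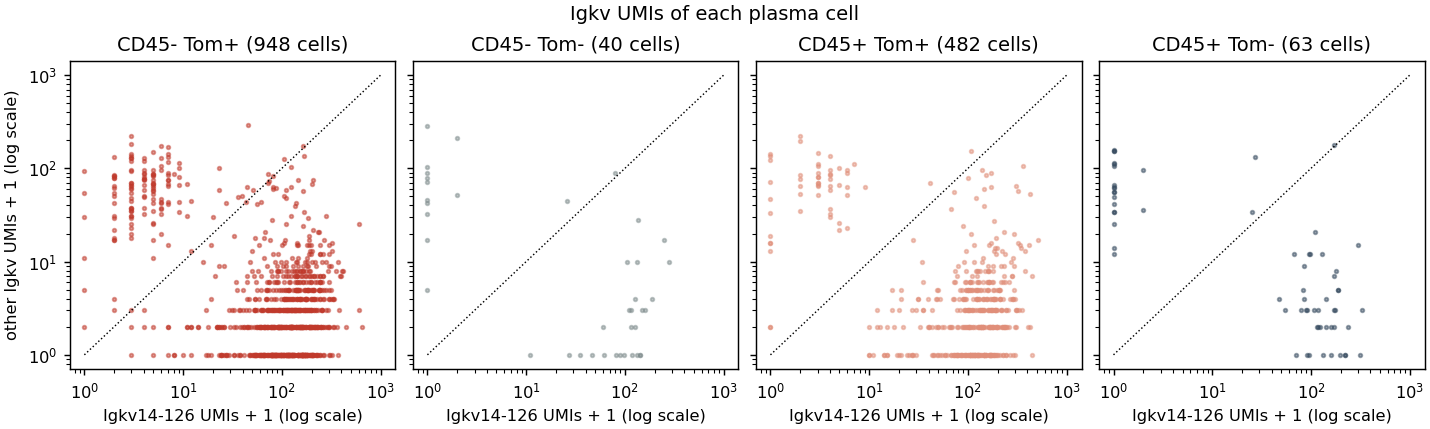
Igkv14-126 UMIs (horizontal) against the UMIs of all other Igkv genes (vertical) in each plasma cell, both plus 1 on log scales, 1 panel per library and 1 point per cell, with the dotted line at equality. Most points lie far from the line, the large group at the lower right being Igkv14-126 cells and the group at the upper left cells of other genes, which in the Tom+ libraries sit a few UMIs to the right of 0.

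Igkv14-126 (ENSMUSG00000094345) lies on mm10 at chr6:67896172-67896642, on the plus strand. Its V exon is printed here beside that of Igkv14-111, the most similar Igkv gene, to show how far a read could tell them apart. Both are GENCODE vM21 transcript sequence of the plus strand, Igkv14-126 from chr6:67896345-67896642 and Igkv14-111 from chr6:68256572-68256869, and capitals mark the 27 bases at which each differs from the other.
Igkv14-126: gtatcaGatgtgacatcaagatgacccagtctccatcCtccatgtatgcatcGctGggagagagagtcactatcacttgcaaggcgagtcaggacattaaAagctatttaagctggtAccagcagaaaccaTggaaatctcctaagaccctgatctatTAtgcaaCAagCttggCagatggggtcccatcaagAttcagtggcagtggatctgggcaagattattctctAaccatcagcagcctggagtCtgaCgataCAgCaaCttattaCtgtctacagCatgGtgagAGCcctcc
Igkv14-111: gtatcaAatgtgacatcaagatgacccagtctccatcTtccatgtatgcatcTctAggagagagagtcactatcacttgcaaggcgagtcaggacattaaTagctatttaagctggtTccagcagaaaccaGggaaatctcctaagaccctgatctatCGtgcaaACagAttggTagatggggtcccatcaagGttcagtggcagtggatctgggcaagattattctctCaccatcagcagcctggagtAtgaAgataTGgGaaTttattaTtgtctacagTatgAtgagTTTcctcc
The exons were 90.9% identical, and none of the 309 windows of 50 bases in the Igkv14-126 transcript occurred in another Igkv transcript. Igkv14-111 was the top gene of 1 cell. In the 1302 cells of Igkv14-126 it had 75 UMIs against 177440.

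The remaining 228 cells used 41 other Igkv genes, 1 of them a pseudogene (Igkv3-11, top in 1 cell), and 18 of these genes led in a single cell. Igkv3-2 was top in 56 cells, 29 in CD45- Tom+ (3.07%), 7 in CD45- Tom- (17.5%, 7.34 to 32.8), 16 in CD45+ Tom+ (3.32%) and 4 in CD45+ Tom- (6.35%, 1.76 to 15.5). Igkv19-93 was top in 49 cells, 30 in CD45- Tom+ (3.17%) and 19 in CD45+ Tom+ (3.94%). It led in 0 of 40 and 0 of 63 cells of the Tom- libraries. A floor of 3 counts puts these at up to 7.50% and 4.76%, and the exact upper limits are 8.81% and 5.69%. The shares in the Tom+ libraries lie below all of these limits. Among cells without Igkv14-126, Igkv19-93 made up 25.7% (19.6 to 32.5) in the Tom+ libraries and 0 of 37 in the Tom- libraries. For 0 of 37 the floor is 8.11% and the exact upper limit 9.49%.

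Further genes were used by few cells. Igkv3-5 led in 15 cells, Igkv1-135 and Igkv4-91 in 12 each, Igkv17-127 in 9, Igkv10-96 and Igkv4-53 in 6 each, Igkv1-110, Igkv1-117 and Igkv12-44 in 5 each, Igkv4-50 and Igkv4-55 in 4 each, and Igkv2-137 and Igkv5-48 in 3 each. Of the 6 Igkv4-53 cells, 5 were in Tom- libraries. For 4 of the more used genes, the median V UMIs per cell were below those of Igkv14-126. They were 67 for Igkv3-2, 53 for Igkv19-93, 59 for Igkv3-5 and 58.5 for Igkv4-91 against 125. Igkc, counted from a shared constant region, had medians of 11848.5, 10395, 9274 and 10252.5 UMIs against 15042.5. Igkv1-135 went the other way for Igkc. Its medians were 19491, 15943.5 and 19804 UMIs in CD45- Tom+, CD45- Tom- and CD45+ Tom-, from 8, 2 and 2 cells. Once Igkv14-126 cells were set aside, 10.8%, 24.2%, 21.6% and 5.93% of cell pairs shared a gene in the order of the libraries above.

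Igkv3-2 and Igkv3-5 belong to 1 V family and lie close to Igkc. Their V exons are given because the pair shared heavy chain partners, described further on. They are the first 300 bases, on the plus strand of mm10, of the exons at chr6:70698758-70699067 and chr6:70663586-70663895, with capitals at the 28 bases that differ.
Igkv3-2: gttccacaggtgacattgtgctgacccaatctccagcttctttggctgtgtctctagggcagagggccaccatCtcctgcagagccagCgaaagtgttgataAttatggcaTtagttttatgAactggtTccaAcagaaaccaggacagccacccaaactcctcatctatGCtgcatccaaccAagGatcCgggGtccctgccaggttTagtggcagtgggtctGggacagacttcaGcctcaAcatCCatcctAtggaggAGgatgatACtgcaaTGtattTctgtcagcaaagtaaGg
Igkv3-5: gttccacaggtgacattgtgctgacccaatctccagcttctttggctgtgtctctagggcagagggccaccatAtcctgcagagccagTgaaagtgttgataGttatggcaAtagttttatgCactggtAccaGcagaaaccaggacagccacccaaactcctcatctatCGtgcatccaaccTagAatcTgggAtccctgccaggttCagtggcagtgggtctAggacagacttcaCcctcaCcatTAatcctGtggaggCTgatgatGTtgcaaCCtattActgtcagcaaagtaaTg
The whole exons were 90.6% identical. Reads were less sure here, as 21.3% of the 50-base windows of the Igkv3-2 transcript and 51.4% of those of Igkv3-5 also occurred in another Igkv transcript, and Igkv3-5 was 98.1% identical to Igkv3-10, top in 2 cells. Igkv19-93 had no shared window. Its V exon, from the minus strand at chr6:68736297-68736594, was 75.0% identical to that of Igkv14-126 and is shown because its cells were seen in Tom+ libraries alone.
Igkv19-93: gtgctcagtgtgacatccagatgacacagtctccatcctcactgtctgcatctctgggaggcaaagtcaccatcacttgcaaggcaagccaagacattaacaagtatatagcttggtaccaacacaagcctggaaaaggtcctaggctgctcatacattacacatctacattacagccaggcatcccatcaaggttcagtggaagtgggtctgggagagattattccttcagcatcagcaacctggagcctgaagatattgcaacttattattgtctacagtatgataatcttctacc

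Along the locus, Igkv14-126 lies 2.83 Mb from Igkc and is number 147 of the 160 members counted from Igkc. The members spread from 0.0226 to 3.17 Mb away. The 228 other cells were split nearly evenly, with 115 cells and 18 genes on the side of the middle of the locus away from Igkc and 113 cells and 23 genes on the side near it.

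**Figure D3:**
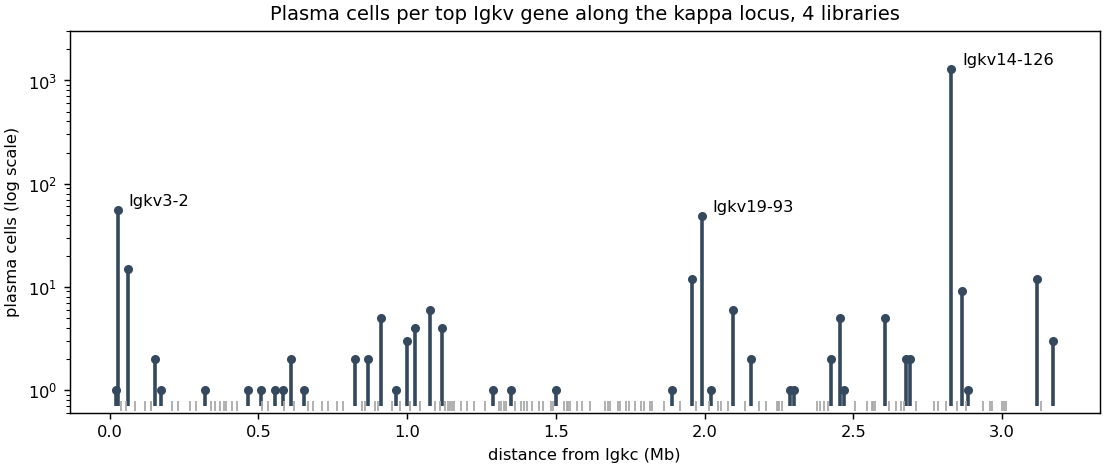
Plasma cells of the 4 libraries (vertical, log scale) by the distance of their top Igkv gene from Igkc (horizontal, Mb). Stems are genes used by at least 1 cell and grey ticks unused members. Igkv14-126 stands at 1302 cells, 2.83 Mb from Igkc, against 56 for Igkv3-2 and 49 for Igkv19-93.

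The repertoires of the libraries were also compared gene by gene. The libraries used 32, 8, 15 and 15 Igkv genes. To turn the gene use of 1 library into that of another, 6.59% of cells would have to change gene between the Tom+ libraries, 21.3% between the Tom- libraries and 29.5% to 32.2% between a Tom+ and a Tom- library. The Tom- libraries had 40 and 63 called cells, and few cells alone raise this measure.

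Summed over plasma cells, Igkv14-126 had 2441 CPM in CD45- Tom+ and 1999 CPM in CD45- Tom-, for which the log2 ratio was 0.29 (0.24 to 0.34). In CD45+ Tom+ it had 2625 CPM and in CD45+ Tom- 2132 CPM, with a log2 ratio of 0.30 (0.26 to 0.34). Igkv19-93 had 50.2 CPM in CD45- Tom+ and no UMI in CD45- Tom-, and 65.4 against 1.44 CPM in the CD45+ pair. By cells it led in 30 of 945 against 0 of 40, and in 19 of 482 against 0 of 63. The summed CPM of Igkv3-2 went the other way, with 49.2 against 201 CPM (log2 ratio -2.03) and 68.3 against 188 CPM (log2 ratio -1.46). Its Tom- values rest on 7 and 4 cells. By cells, the interval of CD45+ Tom- (1.76 to 15.5) covered the 3.32% of CD45+ Tom+, while that of CD45- Tom- (7.34 to 32.8) lay above 3.07%. A cell that uses a gene adds many UMIs at once, so the ratios and intervals from UMIs do not cover the spread between cells.

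Counts of Igkv genes past 2-fold between libraries are given as a description only. Where the libraries compared averaged 5 CPM or more, 14 of the 17 Igkv genes left of the 160 differed at least 2-fold between CD45- Tom+ and CD45- Tom-, where 6.11% of all genes did. Between CD45+ Tom+ and CD45+ Tom- it was 17 of 20, against 6.41% of all genes. For CD45+ Tom+ against CD45- Tom+ it was 5 of 12 against 0.309%, and for CD45+ Tom- against CD45- Tom- 12 of 19 against 6.98%. The Ighv genes had 6 of 7, 10 of 12, 0 of 5 and 6 of 11 in the same order. Several Igkv genes passed the filter only through the library in which few cells made them high, such as Igkv4-53 with 0 against 39.3 CPM and Igkv12-44 with 0 against 51.5 CPM in the CD45+ pair, and such a gene had to differ. A cell weighs more in the small Tom- libraries, so the filter also bears on the direction, and nothing is read from these counts.

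Nearly every plasma cell was IgM. The heavy constant gene with the most UMIs was Ighm in 1521 of 1530 cells (99.4%, 98.9 to 99.7). IgA led in 5 and IgG in 4, and no cell was led by Ighd or Ighe. All 1302 Igkv14-126 cells were IgM (lower bound 99.7%), being 807, 26, 429 and 40 by library. Of the 228 other cells 219 were (96.1%, 92.6 to 98.2). Igkv14-126 thus made up 85.6% of IgM cells (83.7 to 87.3) and 0 of the 9 switched cells, which allows a share of up to 33.3%. A median Igkv14-126 cell had 6134 Ighm UMIs and none of Igha or the Ighg genes.

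The 9 switched cells used 7 Igkv genes and all came from Tom+ libraries, 6 of them with barcodes unique to 1 library (9 of 1430 plasma cells against 0 of 103, which allows up to 2.91%). In CD45- Tom+ the IgA cells had Igkv1-110 (98 of 121 Igkv UMIs), Igkv12-46 (127 of 134) and Igkv3-2 (9 of 10). The IgG cells there had Igkv10-96 (285 of 336) and Igkv6-15 (42 of 49), both with Ighg2c, and Igkv3-2 (51 of 56) with Ighg2b. In CD45+ Tom+ both IgA cells had Igkv12-98 with Ighv14-3, and the IgG cell had Igkv8-28 with Ighg1. Igkv12-98, Igkv12-46, Igkv6-15 and Igkv8-28, top in 2, 1, 1 and 1 cells, thus led no IgM cell. Switched cells held 67 to 7430 Ighm UMIs with a median of 187. The cell at 7430, the Igkv10-96 cell, had 12923 Ighg2c UMIs and 89575 UMIs in all. The V genes of these 9 cells that fall outside the naming rule were chosen after their values were seen.

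Igkv14-126 went with 1 heavy chain gene. Ighv11-2, on chromosome 12, was the top Ighv gene in 781 of 807 Igkv14-126 cells of CD45- Tom+ (96.8%, 95.3 to 97.9), 25 of 26 of CD45- Tom-, 420 of 429 of CD45+ Tom+ (97.9%, 96.1 to 99.0) and 40 of 40 of CD45+ Tom-. Without recurring barcodes these shares were 98.0%, 100%, 98.7% and 100%. Read from the heavy chain, 98.8% of the 1281 Ighv11-2 cells had Igkv14-126 on top. The partner gene had medians of 55, 43, 52.5 and 57.5 UMIs per cell, below those of Igkv14-126. Of the 36 Igkv14-126 cells without Ighv11-2 on top, 20 had Ighv4-1 and 5 had no call.

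Of the other B-1 pairs known from earlier work, Igkv4-91 with Ighv12-3 was found in 10 of the 12 Igkv4-91 cells, 8 in CD45- Tom+, 1 in CD45+ Tom+ and 1 in CD45+ Tom-. The pair Igkv7-33 with Ighv7-1 was found in 0 of 1530 cells, which allows a share of up to 0.196%. Igkv19-93 was paired with Ighv4-1 in 49 of 49 cells (lower bound 92.7%). Igkv3-2 was more mixed, with Ighv1-53 in 30 of 56 cells (53.6%, 39.7 to 67.0), then Ighv1-26 in 6, Ighv1-20 and Ighv1-72 in 5 each and Ighv1-55 in 4. The Ighv1-53 pair made up 21 of 45 Igkv3-2 cells in the Tom+ libraries (46.7%, 31.7 to 62.1). In the Tom- libraries it was 9 of 11 (81.8%, 48.2 to 97.7), and the intervals overlapped. Igkv3-5, the relative shown above, had Ighv1-53 in 8 of its 15 cells and Ighv1-72 in 3. Of the Igkv4-53 cells, 5 had Ighv14-3, 1 in CD45- Tom- and 4 in CD45+ Tom-.

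**Figure D4:**
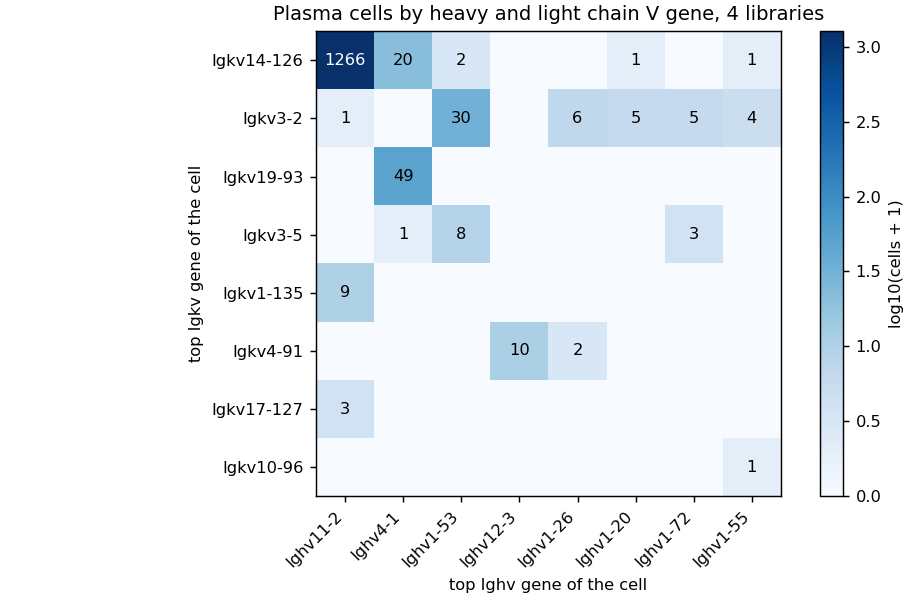
Plasma cells of the 4 libraries by their top Igkv gene (rows, the 8 most used) and top Ighv gene (columns, the main partners). Numbers are cells and the shade is log10(cells + 1). Ighv11-2 with Igkv14-126 holds 1266 cells, Ighv4-1 with Igkv19-93 holds 49 and Ighv1-53 with Igkv3-2 holds 30.

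A minority of cells carried a second Igkv gene. In 79 of 1533 plasma cells (5.15%, 4.10 to 6.38) the second gene had at least 10 UMIs and at least 20% of those of the first. In 15 cells Igkv1-135 accompanied Igkv14-126, and in 11 Igkv17-127 did. All of these 26 cells had Ighv11-2 on top, none had a second Ighv gene with 10 UMIs, and their median depths were 52285 and 25728 UMIs. Of the 15 Ighv11-2 cells that lacked Igkv14-126 as top gene, 9 had Igkv1-135 and 3 had Igkv17-127. Igkv19-93 with Igkv14-126 in 15 cells was different. All 15 had Ighv4-1 on top and a second Ighv gene, which was Ighv11-2 each time, at a median depth of 77993 UMIs. Igkv3-2 with Igkv14-126 in 11 cells lay between, with a second Ighv gene in 7 and a median of 72847 UMIs. Cells with 1 Igkv gene had a second Ighv gene in 1.99% and a median of 44609 UMIs. Many of these cells had a barcode that recurred in another library. It was 13 of 15 cells for Igkv1-135, 4 of 11 for Igkv17-127, 12 of 15 for Igkv19-93 and 9 of 11 for Igkv3-2. Among all plasma cells it was 312 of 948, 21 of 40, 123 of 482 and 22 of 63 by library. Whether a cell transcribed both light chain genes or a barcode held a pair of plasma cells was not tested. These pairs were singled out after their values were seen.

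Igkv RNA was also counted in cells that do not make antibody. Progenitors (Pdgfra and Dcn positive, without a Ptprc UMI) had 107, 7.07, 76.6 and 6.21 Igkv CPM in the order of the libraries, and macrophages (Csf1r and C1qa positive) 109, 8.21, 111 and 8.24. These values were over 10 times higher in the Tom+ libraries, where plasma cells were 24.4% and 25.0% of kept cells. How Igkv RNA came to be counted in these cells was not tested. Plasma cells had 2733, 2795, 2882 and 2818. Thinned to 2000 UMIs per cell, an Igkv UMI was found in 93.7% to 96.5% of plasma cells, in 20.8%, 1.13%, 15.9% and 1.78% of progenitors and in 19.9%, 1.60%, 12.9% and 1.52% of macrophages.

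Igkv14-126 took about the same share of the Igkv UMIs in these cells as in the plasma cells of their library. It was 91.4%, 74.3%, 92.4% and 74.6% in progenitors and 89.3%, 71.5%, 91.1% and 75.7% in plasma cells. In CD45- Tom+ the progenitors had a median of 2 Igkv UMIs, and Igkv14-126 led in 236 of their 244 calls. Calls at few UMIs are thus less sure there. B cells (Ms4a1 and Cd79a positive, under 10 Mzb1 UMIs) had 792, 80.9, 811 and 62.5 Igkv CPM. In the Tom+ libraries 92.5% (90.9 to 93.9) and 94.6% (92.4 to 96.2) of their Igkv UMIs were Igkv14-126, close to the progenitors there. In the Tom- libraries it was 28.9% (20.1 to 39.0) and 34.4% (26.1 to 43.6), below both the progenitors and the plasma cells of the same libraries. How far RNA of other cells entered the B cell values of the Tom+ libraries was not tested.

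**Figure D5:**
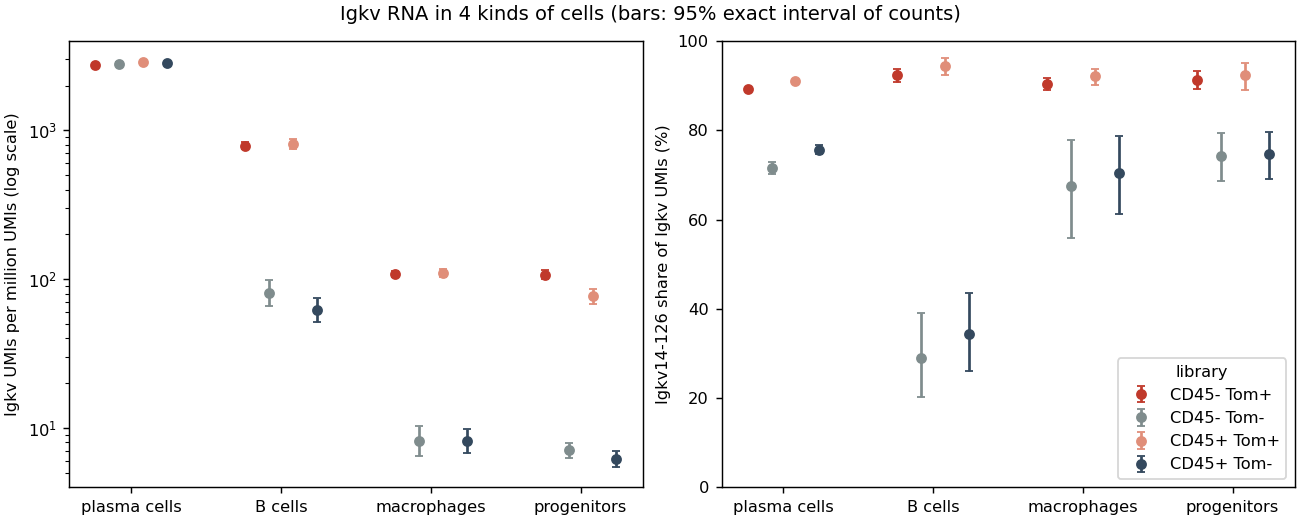
Igkv CPM (left, log scale) and the Igkv14-126 share of Igkv UMIs in % (right) in plasma cells, B cells, macrophages and progenitors. Points are the 4 libraries and whiskers exact 95% counting intervals. Progenitors and macrophages lie near 100 in the Tom+ and under 10 in the Tom- libraries, and B cells of the Tom- libraries have the lowest Igkv14-126 shares, 28.9% and 34.4%.

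Plasma cells with Igkv14-126 were then set against the other IgM plasma cells of the same library, a contrast chosen after the repertoire was seen. Median depth was 46154 against 37457.5 UMIs per cell in CD45- Tom+ and 46597 against 41136.5 in CD45+ Tom+. The intervals of the log2 ratios in this contrast come from UMIs and do not cover the spread between cells. Outside the immunoglobulin genes, 1.02% of 3147 genes of at least 20 CPM differed 2-fold or more in CD45- Tom+ (807 against 132 cells) and 1.95% of 3121 in CD45+ Tom+ (429 against 50 cells). Of these, 14 genes did so in both with the same sign, 3 higher and 11 lower in Igkv14-126 cells. The higher ones were Cox4i2, a subunit of cytochrome c oxidase (log2 ratios 1.38 and 1.69), Ovol3 (1.09 and 1.55) and Gm42047 (1.01 and 1.64). Among the lower ones were Gm30211 (-2.25 and -2.28), Prg2, an eosinophil granule protein gene (-1.92 and -1.98), Napsa, an aspartic protease (-2.22 and -3.65), Lag3, an inhibitory receptor (-1.94 and -2.86), and Dusp4, a MAP kinase phosphatase (-1.38 and -1.76). Summed over the Tom- libraries (66 against 37 cells) the log2 ratios were 3.15 for Cox4i2, 1.04 for Ovol3, 2.68 for Gm42047, -3.01 for Gm30211, -1.78 for Prg2 and -1.28 for Dusp4. The intervals of Napsa (-0.16, -0.58 to 0.28) and Lag3 (-0.96, -2.13 to 0.23) spanned 0 there, and Wnt10a, another of the 11 lower genes, had 0.79 (-0.29 to 2.03).

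Genes tied to the B-1 lineage did not separate these cells by as much as 2-fold where they were well counted. Bhlhe41, a transcription factor of B-1a cells, had 24.4 against 27.5 CPM in CD45- Tom+ and 27.3 against 28.8 CPM in CD45+ Tom+, and 25.7 against 25.5 CPM in the Tom- libraries summed. Spn (CD43) had 40.0 against 39.9, 40.2 against 43.3 and 51.3 against 41.2 CPM. Ctla4 was lower in Igkv14-126 cells of the Tom+ libraries, with 219 against 283 and 209 against 304 CPM, and had 189 against 166 CPM in the Tom- libraries, where the interval of the log2 ratio spanned 0 (-0.04 to 0.41). Itgam (CD11b) had log2 ratios of -0.45, 0.47 and -0.68. Cd5 and Zbtb32 were at most 1.49 CPM in the Tom+ libraries. The reporter tdTomato had 620 against 641 CPM in CD45- Tom+ and 639 against 731 CPM in CD45+ Tom+. In the Tom- libraries it had 25.0 against 40.4 CPM, a log2 ratio of -0.69 (-1.22 to -0.16) that rests on 75 and 54 UMIs. Cdkn2a, the gene of p16, had 4.24 against 6.0 CPM and 5.10 against 0.995 CPM, the last from 2 UMIs, and 10.3 against 7.49 CPM in the Tom- libraries.

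Across the 1533 plasma cells, the genes whose level followed Igkv14-126 most closely were Ighv11-2 (Pearson r 0.91), Epcam, an epithelial adhesion molecule (0.42), Igkc (0.38), Iglv1 (0.33) and Ly6c2 (0.30). These points share libraries and depth, so the correlations are descriptions. Epcam had 167 CPM in Igkv14-126 cells against 55.3 in the other IgM cells of CD45- Tom+ (log2 ratio 1.60), 181 against 102 in CD45+ Tom+ (0.83) and 129 against 38.9 in the Tom- libraries (1.73). Ly6c2 had log2 ratios of 0.38, 1.70 and 0.97. Iglv1, a lambda V gene, was counted at 3702 CPM in Igkv14-126 cells of CD45- Tom+ although 5 of the 1533 cells had more lambda than kappa constant UMIs.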

How the data were processed

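UMI counts of 4 libraries were used, 1 per CD45 and tdTomato gate. The authors prepared 10x Genomics Chromium 3′ libraries from gonadal adipose stromal vascular cells, sequenced them on a DNBSEQ-G400RS and ran Cell Ranger 3.0.2 against mm10, per the labels and methods. They deposited whole-number UMI counts per feature and barcode, without normalization. Cell Ranger counts reads that map to 1 gene, so reads shared by similar V genes are lost or may be split, and a V gene is read only where a fragment reaches it.

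Libraries held 64083756 to 139397501 UMIs in 3429 to 11255 barcodes. The cell filter of the study was applied (more than 1000 but fewer than 7000 genes, mitochondrial UMIs below 8%). Scrublet in scanpy 1.11.5 marked doublets at 0.8% per 1000 barcodes, those with the highest scores, and these were left out. The top Igkv, Ighv and constant gene of a cell was the one with the most UMIs, with no call at a tie. Cells led by any of the 4 Ighg genes were counted as IgG. B cells needed 2 Ms4a1 and 2 Cd79a UMIs, progenitors 2 Pdgfra and 5 Dcn UMIs, and macrophages 2 Csf1r and 5 C1qa UMIs, all with under 10 Mzb1 UMIs.

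Shares carry exact (Clopper-Pearson) intervals, CPM exact Poisson intervals, and ratios of summed counts the conditional exact interval. A count of 0 is given with a floor of 3 counts, which for the shares printed here lies below the exact upper limit. Cells are not replicates, so no test across cells was run. The functions were tested on simulated data. Positions and sequences came from GENCODE vM21 (mm10), where all 160 Igkv features were found by identifier, and V exons were aligned globally with Biopython 1.88.

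The text names Igkv14-126, the 15 other most used Igkv genes, the 5 leading Ighv partners of the 3 most used, known B-1 pairs, constant genes, markers and the 5 genes with the highest correlation. A gene of the B cell marker list is not reported here. Members, lists and rules were chosen with earlier results of these data known. Alternatives changed the doublet step, the cell filter, the plasma cell rule, the call, the depth, the light chain, the shared barcodes and the filter on low values.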

Additional observations from a re-analysis of the deposited data

Results flagged for a closer look

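Igkv3-5 moved in opposite directions between Tom+ and Tom- plasma cells under the CD45 labels. The log2 ratio of its CPM was 2.71 (1.48 to 4.33) for CD45- Tom+ over CD45- Tom- and -1.80 (-2.15 to -1.44) for CD45+ Tom+ over CD45+ Tom-. It rested on 10, 0, 3 and 2 cells with Igkv3-5 on top, and the difference between the pairs was not tested.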

How the results depend on the processing

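Of 180 recomputed values of 23 results, 162 stayed within their counting interval or within 1.5 times the count, and the 18 others follow. The share of Igkv14-126 cells with Ighv11-2 in CD45- Tom+ was 93.9% under the looser plasma cell rule, 99.0% for clear calls (at least 10 Igkv UMIs and 80% on the top gene), 82.8% thinned to 2000 UMIs and 98.0% without shared barcodes. In CD45+ Tom+ it was 80.7% thinned, and in CD45- Tom- 100% both under the stricter rule and without shared barcodes. Thinning leaves few Ighv UMIs per cell. Clear calls put Igkv14-126 in 88.0% of IgM cells.

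The counts of Igkv genes differing 2-fold followed the filter. In the order CD45- pair, CD45+ pair, Tom+ pair and Tom- pair they were 62 of 71, 57 of 62, 52 of 76 and 35 of 46 without a filter, where 44.6%, 38.1%, 21.2% and 31.9% of all genes did. At a mean of 20 CPM, where fewer genes were tested, they were 7 of 8, 7 of 8, 0 of 3 and 5 of 10, against 3.11%, 4.32%, 0.164% and 1.95% of all genes. With doublets kept, the Tom- pair had 20 of 26 against 3.34% of all genes, and under the stricter rule the Tom+ pair had 2 of 11 against 0.382%. The cause was not tested.

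Leaving out each library in turn, an alternative added after seeing the data, gave Igkv14-126 shares of 83.8% to 86.6% in IgM cells and 0% in IgA and IgG cells. No paired analysis was possible because each group was 1 library and no result came from a test. Precision in the Tom- libraries was limited by 40 and 63 plasma cells.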
